A study of Mus musculus with 6 samples.

Results

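The lymphocyte lineage genes were 33 of 21755 protein-coding genes on the 19 autosomes and X, chosen by name as genes known for T cells (15 genes), NK and cytotoxic cells (9 genes) and B cells (8 genes), with the activation marker Cd69. They were examined in maps of histone H3 acetylated at lysine 27 (H3K27ac) from alveolar macrophages, the resident phagocytes of the lung air spaces. Cells were sorted from the bronchoalveolar lavage of wild-type C57BL/6J mice aged 9 weeks, with no treatment and no altered allele, and profiled by HT-ChIPmentation, in which the transposase Tn5 inserts sequencing adapters into antibody-bound chromatin on beads. The 6 samples were 1 library with an Active Motif antibody (catalogue number 39135), 2 libraries with a Cell Signaling antibody (catalogue number 8173) and 3 inputs, which entered only through the authors' peak calling. The label of the Active Motif library names its target as H3, and the study's methods name H3K27ac. The labels do not say whether the Cell Signaling replicates came from separate animals, and the methods describe sonication on more than 1 instrument, so antibody, sonication, run and depth cannot be told apart. With 1 library against 2, no test between libraries was possible, and the values of the 3 libraries are given side by side.

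A promoter peak was a deposited peak with any base within 1 kb of an annotated transcript start of the gene. A distal peak was one whose midpoint lay over 3 kb from every protein-coding start, and it was given to the gene with the nearest start. The fold of a peak is its enrichment over background as the authors' peak caller wrote it, and percentiles are taken within a library, since folds of different libraries are not on one scale. An absent peak means that no region there passed the authors' threshold, and read depth is unknown from these files. The Active Motif list held 36364 peaks, Cell Signaling replicate 1 held 56175 and replicate 2 held 49139. All 10 alveolar macrophage markers examined (Siglecf, Itgax, Marco, Pparg, Chil3, Fabp4, Ear2, Mertk, Cd68 and Fcgr1) had a promoter peak in each library, and their folds ran from 7.99 to 31.9 in the Active Motif library, from 11.1 to 65.7 in replicate 1 and from 12.0 to 50.4 in replicate 2. Of 12 markers of airway and alveolar epithelium, 10 had a promoter peak in replicate 1 (folds from 4.23 to 18.1, summing to 73.5), against 1 in the Active Motif library (Tppp3, 11.8) and 2 in replicate 2 (Tppp3 and Epcam, summing to 30.3). Foxj1 and Sftpc had none in any library. The part of that difference in the peaks found in replicate 1 alone was not tested.

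H3K27ac is deposited by the acetyltransferases p300 and CBP at active promoters and enhancers and is removed when these elements fall silent. T cells recognise antigen through a receptor that signals by the CD3 chains and the kinases Lck and Zap70, B cells through surface immunoglobulin and the chains CD79A and CD79B, and NK cells through germline-encoded receptors such as NKp46 and the Klr lectins. Macrophages are of the myeloid lineage and use related adaptors and kinases downstream of Fc receptors and integrins.

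At the sequence level, most members began in CpG-poor DNA. The ratio of observed to expected CpG within 500 bp of the gene 5' end had a median of 0.25 over the members and 0.56 over all protein-coding genes. It was below 0.4 at 28 of 33 members (84.8%), against 39.6% of all genes. The 5 exceptions encode transcription factors of lymphocytes: Gata3 (0.48), Tbx21 (0.76), Eomes (0.62), Pax5 (0.68) and Ebf1 (0.49). Of the 33 members, 22 matched the RefSeq promoter table for GRCm38.p6 (250 bp before to 50 bp after a start, 29 windows in all). The members without an entry were Cd2, Cd4, Cd7, Cd8b1, Cd28, Il2rb, Klrd1, Cd79b, Ms4a1, Blk and Cd69. The 4 windows printed here contrast Klrb1c, which carried a weak promoter peak in both Cell Signaling libraries, with Cd3e, Cd79a and Tbx21, which had none. The CpG ratio within 500 bp of the 5' end was 0.11 at Klrb1c, 0.27 at Cd3e, 0.33 at Cd79a and 0.76 at Tbx21. The windows read 5′ to 3′ on the gene's strand, and capitals mark CpG dinucleotides and any of the 7 motifs searched.
Klrb1c, chr6:128788592-128788891, minus strand: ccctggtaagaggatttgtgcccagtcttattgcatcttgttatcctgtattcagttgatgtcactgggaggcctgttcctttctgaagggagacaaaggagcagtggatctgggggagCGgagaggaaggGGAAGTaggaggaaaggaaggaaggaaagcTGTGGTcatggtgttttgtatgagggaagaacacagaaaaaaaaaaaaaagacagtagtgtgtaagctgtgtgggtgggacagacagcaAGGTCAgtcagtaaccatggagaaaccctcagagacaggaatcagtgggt
Cd3e, chr9:45009562-45009861, minus strand: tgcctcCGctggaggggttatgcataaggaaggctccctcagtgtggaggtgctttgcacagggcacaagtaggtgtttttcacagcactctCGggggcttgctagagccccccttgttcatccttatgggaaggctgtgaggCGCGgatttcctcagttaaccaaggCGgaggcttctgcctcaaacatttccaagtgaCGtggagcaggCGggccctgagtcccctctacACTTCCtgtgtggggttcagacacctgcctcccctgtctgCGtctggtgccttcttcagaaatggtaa
Cd79a, chr7:24897247-24897546, plus strand: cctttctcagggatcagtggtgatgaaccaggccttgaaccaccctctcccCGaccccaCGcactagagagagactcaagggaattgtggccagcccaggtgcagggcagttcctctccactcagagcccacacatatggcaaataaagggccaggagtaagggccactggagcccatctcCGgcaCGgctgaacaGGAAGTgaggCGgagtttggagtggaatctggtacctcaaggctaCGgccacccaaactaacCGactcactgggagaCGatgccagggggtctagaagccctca
Tbx21, chr11:97115282-97115581, minus strand: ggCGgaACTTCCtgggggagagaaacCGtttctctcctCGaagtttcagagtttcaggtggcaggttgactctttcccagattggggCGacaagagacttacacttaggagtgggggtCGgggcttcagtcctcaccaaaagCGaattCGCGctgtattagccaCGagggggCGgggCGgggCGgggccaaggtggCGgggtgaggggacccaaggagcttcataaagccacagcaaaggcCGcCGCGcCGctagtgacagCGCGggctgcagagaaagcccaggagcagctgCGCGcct
The Klrb1c window held 1 CpG, those of Cd3e and Cd79a 8 each and that of Tbx21 21, against a median of 7 over all 32851 windows of the table. All 4 windows hold the ETS core letters GGAAGT on 1 strand, and that of Klrb1c also the RUNX letters TGTGGT and the nuclear receptor letters AGGTCA.

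Over the 29 member windows, searched on both strands, GGAAGT (ETS) was present in 14 windows of 13 genes (48.3%), against 23.8% of all promoter windows. The RUNX letters TGTGGT were in 12 windows of 11 genes (41.4%, against 16.8%). The remaining motifs were in fewer windows: AGGTCA in 5 (17.2%, against 16.3%), the AP-1 letters TGAGTCA in 2 (6.90%, against 5.20%), the E-box CACGTG in 2 (6.90%, against 7.15%), the PU.1 letters GAGGAAGT, which contain the ETS letters, in 1 (3.45%, against 3.20%) and the C/EBP palindrome TTGCGCAA in 0 (against 0.183%). Windows of genes with several listed starts can overlap, so these shares are a description, and letters in a window do not show binding.

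Few members carried promoter H3K27ac. A promoter peak was present at 4 of 33 members in the Active Motif library (12.1%, against 41.9% of all protein-coding genes), at 8 in Cell Signaling replicate 1 (24.2%, against 49.0%) and at 6 in replicate 2 (18.2%, against 50.0%). The same 6 members had one in both replicates (18.2%, against 47.6%), and 4 had one in all 3 libraries (12.1%, against 41.8%): Cd2, Cd3d, Lck and Cd69. Klrb1c and Ms4a1 followed in both Cell Signaling libraries, and Cd5 and Il7r in replicate 1 alone. In chromatin from bulk cells, a weak mark in every cell and a strong mark in a few cells cannot be told apart. The other 25 members had none in any library, namely 10 T cell genes, 8 NK and cytotoxic genes and 7 B cell genes. For all genes the share without one in any library was not counted.

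**Figure D1:**
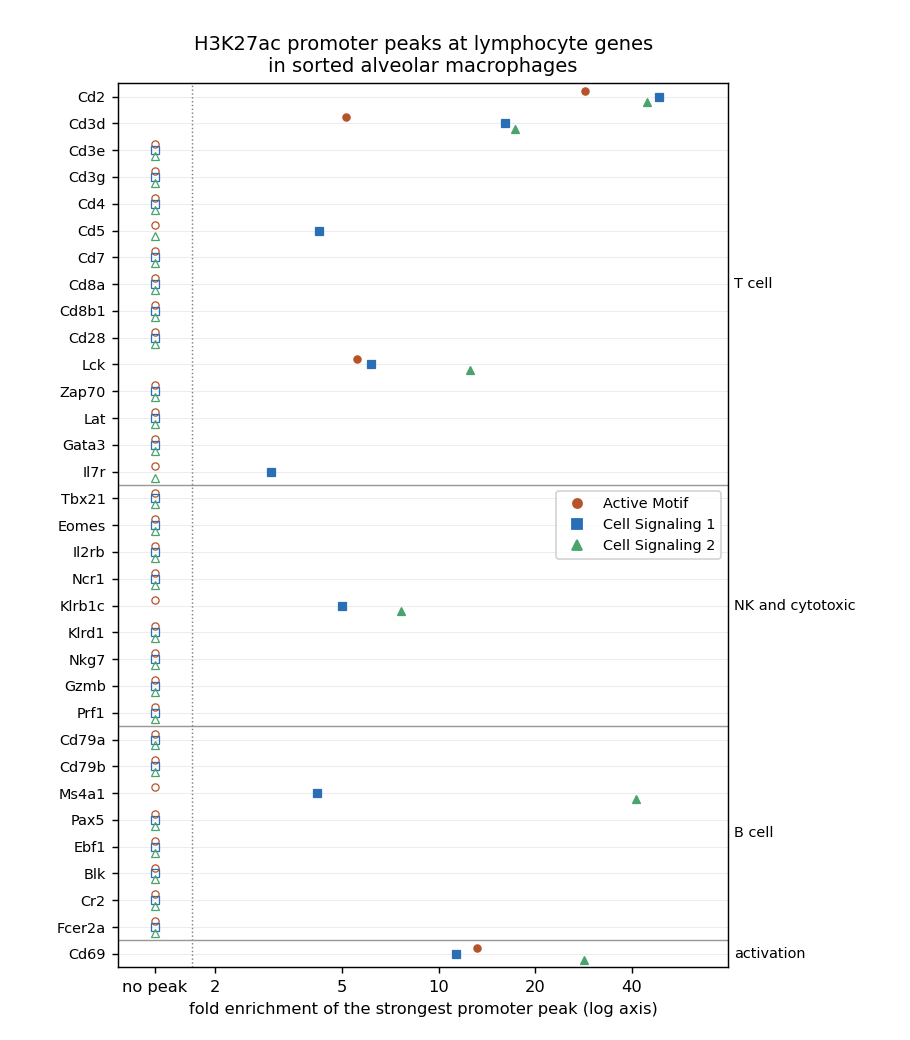
Fold enrichment (log axis) of the strongest promoter peak of each of the 33 lymphocyte genes in the Active Motif library (circles) and Cell Signaling replicates 1 (squares) and 2 (triangles); open symbols at the left mark no peak. Filled symbols are confined to 8 genes, and the folds of Cd2 (28.6 to 48.8) were above those of the other members in each library.

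Read against genes of like CpG content, the members with a ratio below 0.4 were close to their background in the Active Motif library, with 4 of 28 marked (14.3%, against 13.7% of all genes below that ratio). In replicate 1 the share was 8 of 28 (28.6%, against 18.9%) and in replicate 2 it was 6 of 28 (21.4%, against 18.7%). Cd2 and Cd69, which the paper lists as alveolar macrophage genes, were among the marked members in each library. Without them, 2, 6 and 4 members were marked in the Active Motif library and replicates 1 and 2. These were among 26 members with a ratio below 0.4. The 5 CpG-rich members had 0 promoter peaks in each library, where 60.4%, 68.8% and 70.5% of all genes at or above that ratio had one in the Active Motif library and replicates 1 and 2. The limit of 0.4 was set after the values had been seen.

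The next values are set against all genes, which are not matched for CpG content. No base within 5 kb of the 5' end lay in a peak at 27 of 33 members in the Active Motif library (81.8%, against 57.7% of all genes), at 24 in replicate 1 (72.7%, against 50.1%) and at 25 in replicate 2 (75.8%, against 49.1%). The median distance from the 5' end to the nearest peak was 41.1, 22.4 and 20.4 kb over the members, against 17, 5.12 and 4.01 kb over all genes. Distances of single members to their nearest peak are likewise given from the 5' end, unless a start is named. A peak overlapped the gene body at 6 members in the Active Motif library (against 42.6% of all genes), at 8 in replicate 1 (against 52.7%) and at 8 in replicate 2 (against 53.4%). Of these, 3, 4 and 4 were T cell genes in the order of the libraries, and 2 in each library were B cell genes.

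**Figure D2:**
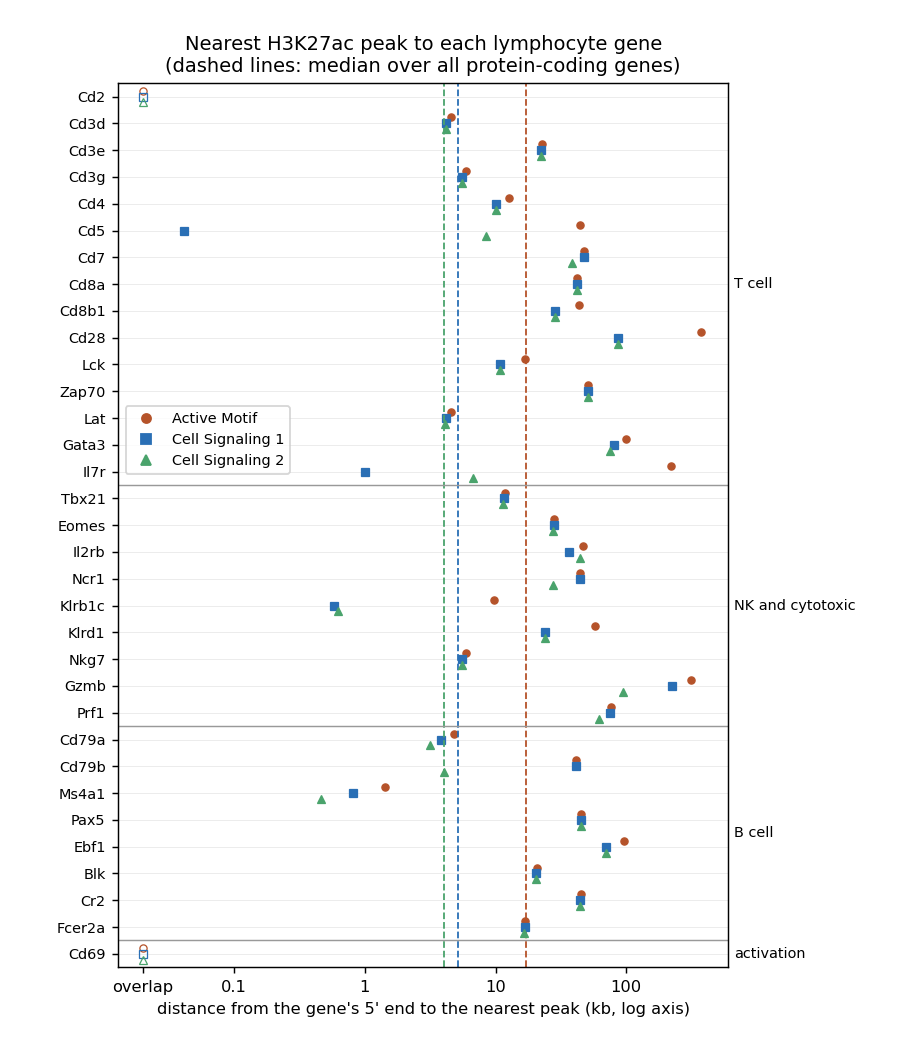
Distance in kb (log axis) from the 5' end of each of the 33 lymphocyte genes to the nearest peak in the 3 libraries, with open symbols at "overlap" where a peak covers the 5' end; dashed lines are medians over all protein-coding genes (17, 5.12 and 4.01 kb). Cd2 and Cd69 alone had the 5' end covered by a peak. In the order of the libraries, the 5' ends of 24, 22 and 21 members lay over 10 kb from any peak. These were 72.7%, 66.7% and 63.6% of members, against 54.2%, 46.0% and 45.2% of all genes, not matched for CpG content. They include Lck, whose peak lies inside the gene.

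Of the chains of the T cell receptor complex, Cd3d alone had peaks within the window, and Cd3e and Cd3g had none. Cd3d, on chromosome 9, encodes the CD3 delta chain. Its strongest peak had a fold of 5.12 with the Active Motif antibody and 16.1 and 17.3 in the Cell Signaling replicates, at percentiles 8.12, 41.3 and 26.3 of the genes with a promoter peak. The peak did not sit at the 5' end of the gene. Its summit lay 5.0, 4.96 and 5.13 kb downstream, in an exon near the 3' end, and it was counted because a coding and a non-coding transcript start within the gene there. Cd3g, whose start lies 1.35 kb from that of Cd3d, was 5.94, 5.57 and 5.50 kb from its nearest peak, which lay inside Cd3d in each library. Cd3e was at least 22.3 kb from a peak when measured from its 5' end, and 15.4, 15.2 and 15.0 kb from one when measured from its nearest annotated start.

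The coreceptor genes were without promoter peaks. Cd8a, which encodes a chain of the CD8 coreceptor, had its nearest peak at 42.0 kb in the Active Motif library and at 41.7 kb in both replicates. Cd8b1, which encodes the partner chain and starts 0.555 kb from Smyd1, had it at 43.7, 28.7 and 28.5 kb. Cd4, the coreceptor of helper T cells, had a distal peak at -10.3 kb in both Cell Signaling replicates (folds 5.77 and 7.88), where the Active Motif list had none.

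Cd2, an adhesion receptor of T and NK cells that binds CD48 in mice, had the strongest promoter peak among the members in each library. The paper also counts Cd2 among the core genes of alveolar macrophages that fell in cells lacking the retinoid X receptors (RXR). At its promoter on chromosome 3 the fold was 28.6 with the Active Motif antibody and 48.8 and 44.7 in the Cell Signaling replicates, at percentiles 94.9, 91.4 and 89.0 of marked genes. The peak was 2479, 3622 and 10070 bp wide, the last because replicate 2 joined the promoter to an upstream region that the other libraries listed apart. The upstream region, between about 2 and 8 kb from the 5' end, had a highest fold of 23.4 in the Active Motif library, where it was split into 3 peaks, and of 39.2 in replicate 1, where it was 1 peak, and in replicate 2 the summit of the joined peak lay at -5.71 kb. Further regions stood at -25.1 kb (folds 15.2, 38.1 and 28) and at 78.9 kb downstream (3.60, 5.79 and 13.4) in all 3 libraries. In all, Cd2 had 5 distal peaks with the Active Motif antibody and 5 and 11 in the Cell Signaling replicates, and the nearest start of another protein-coding gene, that of Igsf3, was 89.1 kb away.

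The other surface receptors of T cells were weakly marked or not at all. Cd5, a scavenger receptor family member that restrains antigen receptor signalling, had a promoter peak in replicate 1 alone, 85 bp wide and with a fold of 4.23 (percentile 2.70). Its region at -9.39 kb held 5 peaks in replicate 1 (highest fold 7.30), 1 in replicate 2 (10.7) and none in the Active Motif library. Cd28, the costimulatory receptor for CD80 and CD86, had a single region 87.5 kb downstream, outside the gene and over the non-coding gene 2310016D23Rik, with a fold of 6.15 in replicate 1, 7.99 in replicate 2 and no peak with the Active Motif antibody. Cd7, an immunoglobulin superfamily receptor of T and NK cells, had its nearest peak at 47.8, 47.7 and 38.7 kb.

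Among the proximal signalling genes, Lck carried a peak in all 3 libraries, and Zap70 and Lat had none. Lck encodes the Src family kinase that phosphorylates the CD3 chains. Its fold was 5.54 with the Active Motif antibody and 6.15 and 12.5 in the Cell Signaling replicates (percentiles 11.2, 10.8 and 16.3). As at Cd3d, the peak lay inside the gene, with its summit 16.8, 17 and 16.9 kb downstream of the 5' end, within 1 kb of non-coding transcript starts only. Zap70, the kinase recruited to phosphorylated CD3 chains, was at least 51.2 kb from a peak in each library. Lat, the membrane adaptor phosphorylated by Zap70, had its nearest peak at 4.56, 4.21 and 4.09 kb, and the gene with the start nearest to that peak was Spns1.

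**Figure D3:**
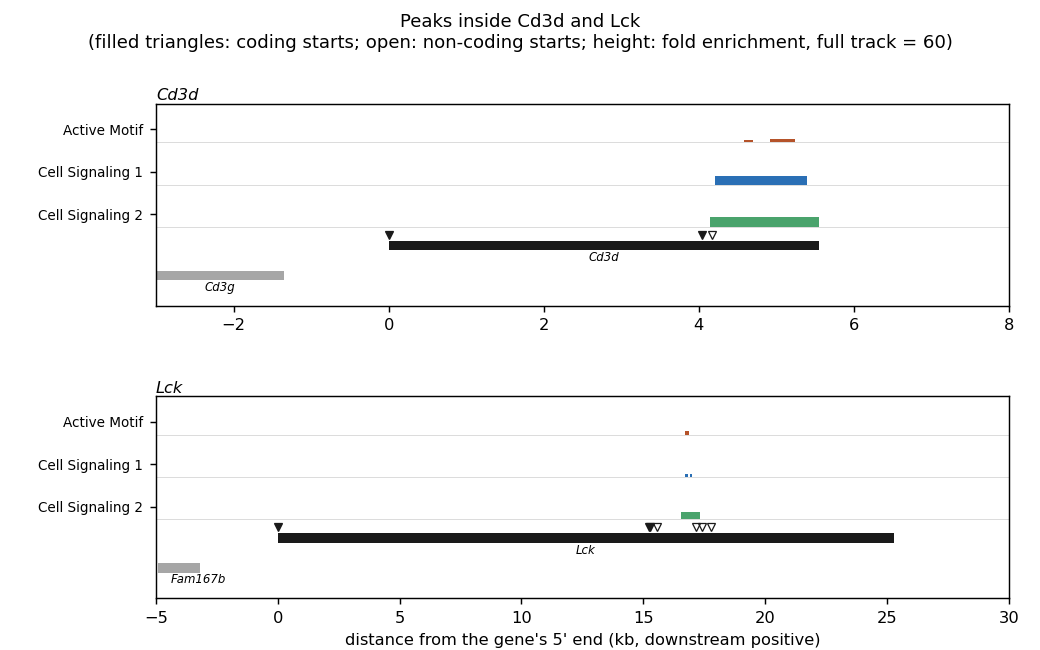
Peaks within Cd3d and Lck against distance from the gene's 5' end (kb, downstream positive), 1 track per library with bar height proportional to fold enrichment; filled triangles are starts of coding transcripts and open triangles starts of non-coding ones. The peaks of Cd3d lie about 5 kb and those of Lck about 17 kb downstream of the 5' end, and the 5' ends themselves are bare.

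Gata3, the transcription factor of T cell commitment and type 2 helper cells, had no promoter peak. Of its distal regions, 1 was found in all 3 libraries, at 140 kb downstream, with folds of 10.7 with the Active Motif antibody and 28.1 and 37.3 in the Cell Signaling replicates (percentiles 83.4, 93.9 and 96.0 of distal peaks). Its nearest peaks, at 99.9, 80.2 and 75.3 kb, were closer to the start of Taf3. Gata3 lies in a gene-poor stretch, and 1210 kb of sequence are nearer to its starts than to those of any other protein-coding gene. The nearest such start, that of 9230102O04Rik, is nevertheless only 0.462 kb away. Il7r, the interleukin 7 receptor of lymphocyte progenitors and memory T cells, had a promoter peak in replicate 1 alone, with a fold of 2.99 (percentile 0.202). In replicate 2 its nearest peak, with a fold of 5.06, lay inside the gene at 6.76 kb, and in the Active Motif library the nearest peak was 218 kb away.

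Of the NK and cytotoxic genes, Klrb1c alone had a promoter peak, and the others had 0 in each library. Klrb1c encodes NK1.1, the lectin receptor used to identify NK cells in C57BL/6 mice. The promoter peak of replicate 1 had a fold of 5.0 and that of replicate 2 one of 7.63 (percentiles 6.02 and 6.94), 0.581 and 0.622 kb from the 5' end. Only the edges of both reach into the 3' end of the sequence printed above. Their summits, 0.710 and 0.801 kb downstream of the 5' end, lie outside it. With the Active Motif antibody there was none, and the nearest peak was 9.71 kb away. Klrb1c was better marked at a distance. It had 5, 4 and 5 distal peaks in 4 regions, each found in all 3 libraries, at 28.7 kb (folds 17, 23.1 and 37.7), 24.9 kb (6.82, 13.1 and 21.4), -10 kb (10.8, 22.7 and 39.7) and -14.1 kb (5.12, 6.15 and 17). The last pair lay inside Gm44511, a protein-coding gene that overlaps Klrb1c and whose nearest start is 37.0 kb away.

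The transcription factors of cytotoxic cells had bare promoters. Tbx21, which encodes T-bet, had a region at -11.9 kb in all 3 libraries, with folds of 7.36 with the Active Motif antibody and 8.84 and 15.4 in the Cell Signaling replicates (percentiles 69.3, 76.1 and 79.5 of distal peaks). Eomes, the related T-box factor, had no distal peak, and its nearest peak was at 28.2, 27.8 and 27.6 kb.

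Among the receptors, Ncr1, which encodes NKp46, had a region at -44.7 kb in all 3 libraries, with folds of 7.67, 12.3 and 25.6, and a further one at -27.7 kb in replicate 2 alone (11.8). Il2rb, the interleukin 2 and interleukin 15 receptor beta chain, and Klrd1, which encodes CD94, had neither promoter nor distal peaks. Their nearest peaks were 46.7, 36.3 and 44.6 kb and 57.8, 24.0 and 23.7 kb away.

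The effector genes had neither promoter nor distal peaks. Gzmb, which encodes granzyme B, was 313, 224 and 94.7 kb from its nearest peak, and Prf1, which encodes the pore-forming protein perforin, was 76.6, 75.4 and 61.8 kb away. Nkg7, a granule membrane protein gene, had a peak 5.93, 5.52 and 5.50 kb from its 5' end, nearest to the start of Etfb, an electron transfer flavoprotein gene.

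Of the B cell genes, Ms4a1, which encodes CD20, alone had a promoter peak. The strongest peak within the window reached 4.18 in replicate 1 and 41.2 in replicate 2 (percentiles 2.0 and 83.0), and there was none with the Active Motif antibody, where the nearest peak was 1.33 kb from a start. The difference between these values lies in where the peak edges fell. In each library a stronger peak stood inside the gene, from 1.674 to 2.961 kb downstream of the 5' end in the Active Motif library (fold 12.5), from 1.237 to 3.678 kb in replicate 1 (31.5) and from 0.464 to 4.306 kb in replicate 2 (41.2), and the last alone reached the promoter window. Those of the Active Motif library and replicate 1 counted neither as promoter nor as distal peaks, since they lay over 1 kb from a start with midpoints under 3 kb away. Taking for each member and library the peak nearest to a start, the distances on either side of the 1 kb limit were both at Ms4a1, 0.715 kb in replicate 1 and 1.33 kb in the Active Motif library. A region at 21.7 kb was found in the Cell Signaling libraries alone (folds 8.26 and 24.0).

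The antigen receptor genes of B cells were without promoter peaks. Cd79a, which encodes the CD79A signalling chain, had its nearest peak at 4.80, 3.85 and 3.13 kb, and that peak was nearest to the start of Arhgef1. In each library that peak lay downstream and began within Cd79a, which ends at chr7:24902197. Cd79b, the partner chain, had 1 weak distal peak in replicate 2 alone, at -4.19 kb, with a fold of 3.29. Blk, a Src family kinase of B cells, had no distal peak, and its nearest peak was at 20.6, 20.3 and 20.4 kb.

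The B cell transcription factor genes Pax5, which maintains B cell identity, and Ebf1, which specifies the lineage, had neither promoter nor distal peaks, and the nearest peak was at least 45.0 kb from Pax5 and at least 70.4 kb from Ebf1. Cr2, which encodes complement receptors 1 and 2 in mice, had a region at -65.1 kb in all 3 libraries (folds 3.43, 6.73 and 15.2), close to the start of the non-coding gene Gm27940. Fcer2a, which encodes the low-affinity IgE receptor CD23, had its nearest peak at 16.9, 16.7 and 16.6 kb.

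Cd69, a membrane lectin induced early on activation of many leukocytes, was marked in all 3 libraries. The paper also lists it as an alveolar macrophage identity gene, among those it assumes to be under direct control of RXR. At its 5' end on chromosome 6 the fold was 13.2 with the Active Motif antibody and 11.3 and 28.5 in the Cell Signaling replicates (percentiles 60.4, 28.2 and 53.3), over widths of 1844, 2058 and 3105 bp. A far broader region stood about 41.0 kb downstream, where a single peak of 9988, 10252 and 12389 bp had folds of 33.2, 61.1 and 50.4, at percentiles 99.3, 99.4 and 99.3 of distal peaks. This region spans the starts of the non-coding genes 2310001H17Rik and Gm47861, so that the nearest coding start (Cd69) is not the nearest annotated start.

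**Figure D4:**
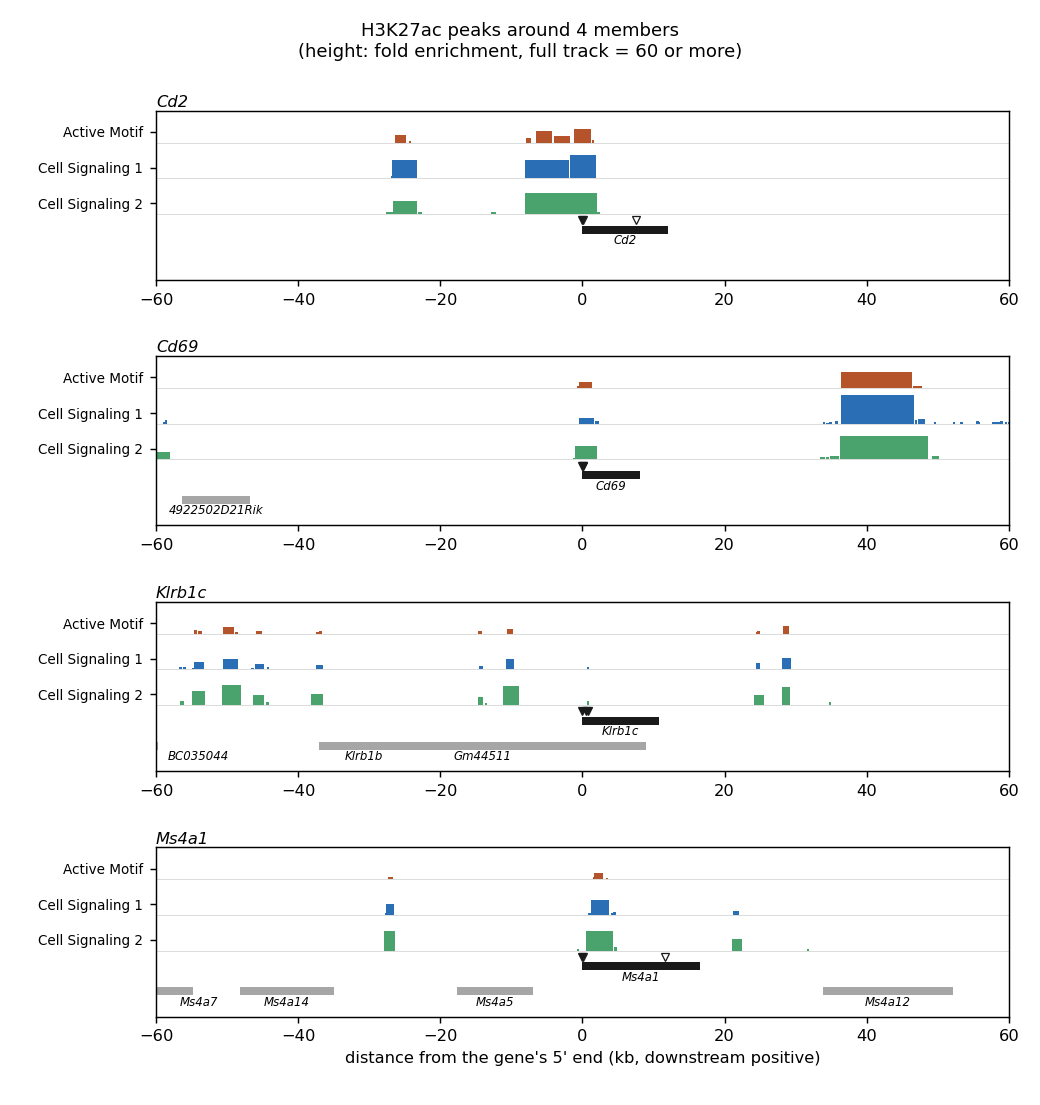
Peaks around Cd2, Cd69, Klrb1c and Ms4a1 against distance from each gene's 5' end (kb, downstream positive), 1 track per library with bar height proportional to fold enrichment; black bars are the named gene, grey bars other protein-coding genes and triangles transcript starts of the named gene (filled for coding). Cd2 and Cd69 were covered at the 5' end, the main peak of Ms4a1 lay inside the gene, and Klrb1c had its strong peaks at a distance.

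Distal peaks reached more of the members than promoter peaks did. At least 1 was present at 8 of 33 members in the Active Motif library (against 18.4% of all genes), at 11 in replicate 1 (against 30.1%) and at 13 in replicate 2 (against 30.1%), and at 11 in both replicates (against 25.9%). Set against all genes without matching for CpG content, the members' share was thus not below theirs, unlike at promoters. There were 18, 31 and 34 distal peaks, or 4.31, 7.42 and 8.13 per Mb of sequence nearest to a member, against 7.29, 13 and 12.0 per Mb over all genes. Without Cd2 and Cd69, which the paper lists as alveolar macrophage genes, there were 10, 20 and 19 distal peaks, at 6, 9 and 11 of 31 members. The density depends on a few long stretches: of 4.18 Mb in all, 1210 kb were nearest to Gata3 and 793 kb to Ebf1. The 28 members with a CpG ratio below 0.4 had 9.40, 16.4 and 18.8 distal peaks per Mb. The 5 others had 0.807, 1.21 and 0.807.

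By lineage, the 9 NK and cytotoxic genes had 13.7, 11.7 and 15.7 distal peaks per Mb, the 15 T cell genes 2.96, 7.40 and 8.88, and the 8 B cell genes 1.28, 2.55 and 2.55. Klrb1c held most of those of the NK genes. Joined where they lay within 500 bp, the distal peaks made 26 regions at 13 members, of which 13 held a peak in all 3 libraries, 5 in the Cell Signaling pair without the other antibody, 7 in replicate 2 alone and 1 in replicate 1 alone. Of the 7 regions of NK genes, 6 were found in all 3 libraries, against 4 of 13 regions of T cell genes and 2 of 5 of B cell genes. Most of the 6 were at Klrb1c. One of the B cell regions, inside Ms4a1, had a distal peak in the Active Motif library alone (fold 3.27). In the Cell Signaling libraries it was overlapped by peaks that were not distal. The share of all distal regions found in all 3 libraries was not counted, and these small numbers do not rank the lineages. The remaining 18 members had neither a promoter nor a distal peak in any library: Cd3e, Cd3g, Cd7, Cd8a, Cd8b1, Zap70, Lat, Eomes, Il2rb, Klrd1, Nkg7, Gzmb, Prf1, Cd79a, Pax5, Ebf1, Blk and Fcer2a.

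The sequences under 4 of the regions found in all 3 libraries, those of Cd2, Gata3, Klrb1c and Tbx21, are given as the 200 bp centred on the replicate 1 summit, because these genes differ in how CpG-rich their regions are. They are on the plus strand of GRCm38, none overlaps an annotated exon, and capitals mark CpG dinucleotides and the motifs above.
Cd2 upstream region, chr3:101293370-101293569: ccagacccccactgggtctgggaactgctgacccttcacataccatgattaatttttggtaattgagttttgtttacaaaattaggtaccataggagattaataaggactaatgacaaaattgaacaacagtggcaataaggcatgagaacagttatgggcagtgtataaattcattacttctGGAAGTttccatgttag
Gata3 downstream region, chr2:9750138-9750337: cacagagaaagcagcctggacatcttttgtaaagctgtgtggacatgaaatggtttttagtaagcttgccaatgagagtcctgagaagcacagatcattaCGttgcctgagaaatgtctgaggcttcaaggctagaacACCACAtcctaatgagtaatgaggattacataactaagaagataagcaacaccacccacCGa
Klrb1c downstream region, chr6:128760272-128760471: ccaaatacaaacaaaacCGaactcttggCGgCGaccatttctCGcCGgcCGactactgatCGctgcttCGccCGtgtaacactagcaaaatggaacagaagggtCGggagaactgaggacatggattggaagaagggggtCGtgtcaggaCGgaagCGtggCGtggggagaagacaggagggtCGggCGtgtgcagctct
Tbx21 upstream region, chr11:97127240-97127439: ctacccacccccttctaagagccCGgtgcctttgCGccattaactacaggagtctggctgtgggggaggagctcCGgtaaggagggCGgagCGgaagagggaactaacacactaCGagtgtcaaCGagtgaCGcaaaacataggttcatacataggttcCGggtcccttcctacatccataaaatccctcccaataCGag
The windows held 0 CpG at Cd2, 2 at Gata3, 16 at Klrb1c and 10 at Tbx21, against a median of 2 over all 34378 distal summit windows of replicate 1 and a median of 2 over the 31 of the members. Those of Klrb1c and Tbx21 stood at percentiles 99.8 and 98.9 of distal windows, and the Cr2 region, with 22, at 99.9. Of the 5 consecutive 40-base pieces of a window, 1 was found again elsewhere in the genome for Klrb1c, for Ncr1 and for Cr2, and 0 for Cd2, Gata3 and Tbx21.

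The same letters were counted under the members' distal summits in replicate 1, several of which share a region. GGAAGT was in 3 of 31 windows (9.68%, against 19.3% of all distal summit windows), at Cd2 and Cd5. TGTGGT was in 6 (19.4%, against 17.3%), at Cd2, Cd4, Gata3, Klrb1c and Ms4a1. AGGTCA was in 2 (6.45%, against 13.4%) and CACGTG in 1 (3.23%, against 2.76%), while GAGGAAGT, TTGCGCAA and TGAGTCA were in 0 (against 3.51%, 0.0611% and 5.76%).

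Further lymphocyte genes, outside the members, also had few promoter peaks, at 4 of 39 with the Active Motif antibody (10.3%) and at 6 (15.4%) and 5 (12.8%) in the Cell Signaling replicates. All protein-coding genes had 41.9%, 49.0% and 50.0%. Of the 39, 34 had a CpG ratio below 0.4, and all genes below that ratio had 13.7%, 18.9% and 18.7%. The 13 further B cell genes were all below it and had higher shares, 23.1%, 38.5% and 30.8%. Of 18 further T cell genes, Foxp3, the factor of regulatory T cells, alone had one, with folds of 7.67, 18.8 and 18.1, and the start nearest to that summit was that of Ppp1r3f in each library. Of 8 further NK cell genes, 0 had one in any library. Of 13 further B cell genes, Btk, the tyrosine kinase of B cells that myeloid cells also use (folds 10.2, 24.2 and 21.4), the lectin gene Cd22 (9.35, 26.5 and 20.3) and the tetraspanin gene Cd37 (20, 40 and 29.3) had one in all 3 libraries. That of Cd22 was counted at a start inside the gene, with summits 2.27, 2.20 and 1.95 kb downstream of the 5' end. The adaptor gene Blnk (6.53) and Vpreb3 (5.0) had one in replicate 1 alone, and the adaptor gene Bank1 (3.59) in replicate 2 alone.

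Myeloid genes related to 2 of the unmarked signalling members were also examined, and these were chosen after their values were seen. Syk, the kinase related to Zap70, had a promoter peak in all 3 libraries, with folds of 31.1, 53.4 and 47.6 (percentiles 96.7, 94.2 and 93.2). Lat2, the adaptor related to Lat, had no peak with the Active Motif antibody and folds of 4.61 and 5.96 in replicates 1 and 2, with summits 7.79 and 7.51 kb inside the gene. Zap70 and Lat themselves had no promoter peak in any library.

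**Figure D5:**
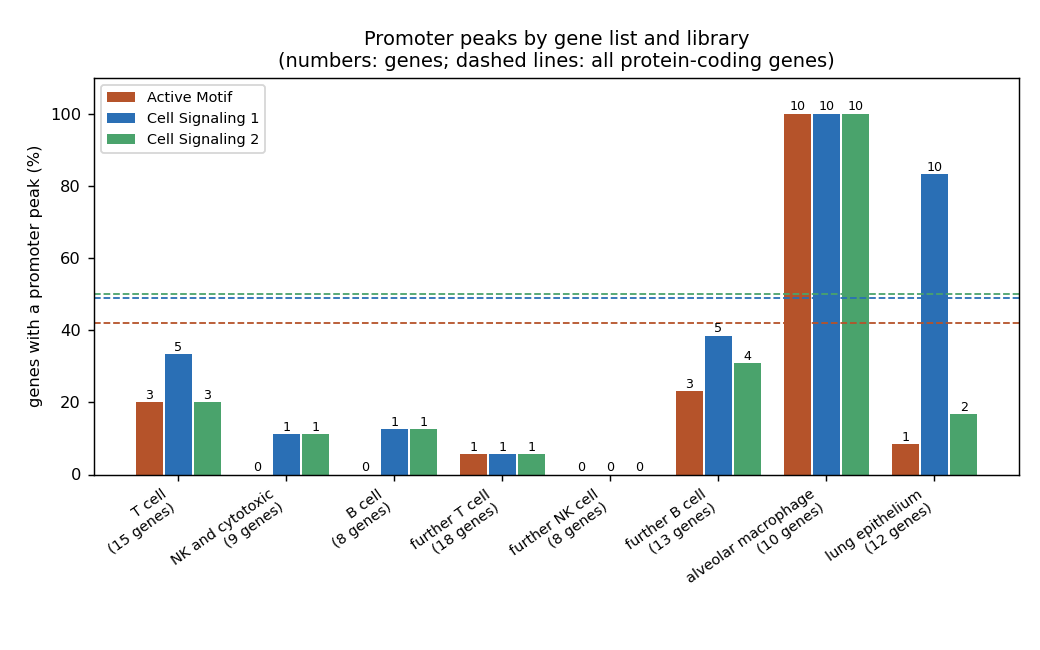
Share of genes (%) with a promoter peak in each gene list and library, with the number of genes above each bar; dashed lines are the shares over all protein-coding genes (41.9%, 49.0% and 50.0%). All 6 lymphocyte lists shown lie below the lines of their library, the alveolar macrophage list above them, and lung epithelial markers above them in Cell Signaling replicate 1 alone. The lines are not matched for CpG content.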

How the data were processed

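H3K27ac peak lists of 3 libraries were analysed. Per the study's methods and the submitters' processing notes, the authors removed adapters (Cutadapt), mapped reads to mm10 (Bowtie2), discarded duplicates and poorly mapped pairs (SAMtools), and ran MACS3 on each library with input as control and a q-value limit of 0.05. For read processing the methods refer to the study's ATAC-seq section, whose software versions are not repeated here. For the Cell Signaling samples bcl2fastq 2.20.0.422 is listed in the submitters' processing notes. The deposited lists hold, for each peak, a fold enrichment (ratio), the −log10 of its p-value and q-value, and a score. The smallest −log10 q was 1.31 to 1.33 per library. The score and p-value were not used here. Weak regions can pass in 1 list and fail in another, and read depth was not used here.

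Starts were those of all 93196 annotated transcript starts of protein-coding genes in GENCODE vM21 (mm10). Sequence came from GRCm38.p6, the same assembly. Positions count from 1. Scripts ran in Python 3.11.15 with pysam 0.24.0 and were tested on simulated peaks. The members and all gene lists were chosen with earlier results of these data known. Named were all members, genes against their list's majority and genes whose start was nearest to a member's peak; a few others were chosen after their values were seen. No test was made, since 1 library stood against 2. The CpG limit of 0.4 was chosen after seeing the data. Alternatives were other windows, starts and thresholds. Those with coding starts only, without Cd2 and Cd69, and with non-coding starts counted were added after seeing the data. A further gene list is not reported here.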

Additional observations from a re-analysis of the deposited data

How the results depend on the processing

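Of 90 counts under an alternative, 80 stayed within 1.5 times of the reported one. With the gene 5' end as the only start, 2 members had a promoter peak with the Active Motif antibody and 5 in replicate 1: the peaks of Cd3d and Lck, and in replicate 1 that of Il7r, lie over 1 kb from the 5' end. At a q-value of at most 1e-05, 5 members had one in replicate 1, and replicate 2 had 22 distal peaks nearest to members. With each list limited to its 36364 strongest peaks, 5 members had a promoter peak in replicate 1. Without Cd2 and Cd69, 2 members had a promoter peak with the Active Motif antibody, and the distal peaks numbered 10, 20 and 19 in the Active Motif library and replicates 1 and 2. With starts of long non-coding RNA genes counted as well, 17 distal peaks were left in replicate 1. Beyond these constructions the cause was not tested. Members with a promoter peak in both Cell Signaling replicates numbered 6 to 8 when either replicate was left out, and those with a distal peak 11 to 13. The number of libraries with a promoter peak was the same under all 8 promoter alternatives at 27 of 33 members. No paired analysis was possible because no test was made between groups and the Active Motif group has 1 library.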
